A study of Mus musculus with 6 samples.

Results

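MS5 cells, a stromal cell line from mouse bone marrow, were profiled for 38 genes of the nuclear receptor family, out of 19938 genes that probe sets of the array named. The members were the vitamin D receptor gene and the other receptor genes of a fixed list, without the Nr4a and Nr1d genes. They were found by the symbol that the probe table gives a probe set, and a probe set was used only where it named 1 gene. Of the 40 genes, 38 were found in this way, each with 1 probe set, and Nr1h2 and Nr2e3 were not analysed here. MS5 cells were grown for 7 days with the MEK inhibitor PD184352 at 1 μM (MEKi) or with DMSO, its diluent (control). Both conditions shared a medium with serum, and MS5 is a cell line, so that all cultures share 1 origin. Each of 3 experiments, called series 1, 2 and 3 by the labels, gave 1 array per condition, 6 arrays in all. Values are RMA-normalized log2 intensities, and MEKi was set against the control of its own experiment.

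Nuclear receptors are transcription factors that most often work as sensors of small lipid-soluble molecules. The vitamin D receptor (VDR) binds calcitriol, pairs with a retinoid X receptor on DNA and in bone marrow stroma is known for its part in osteoblast function and in the supply of RANK ligand. Retinoic acid, thyroid hormone and PPAR receptors also pair with retinoid X receptors, whereas the oestrogen, glucocorticoid and progesterone receptors act mainly as pairs of their own kind. MEK lies upstream of ERK1/2, kinases that phosphorylate several of these receptors and their coregulators.

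Of the 38 receptor genes, only Vdr rose at an adjusted p under 0.05 from limma, and none fell. Over all probe sets, 0.104% were called higher and 0.0555% lower. At an unadjusted p of at most 0.05, 2 members were higher (Vdr and Esr1), against 7.58% of all probe sets, and 3 were lower (Rarb, Nr5a2 and Thrb), against 2.31%. In either direction these were 5 members, 13.2% of the 38, against 9.89%. With a change of at least 1.5-fold as well, which are the thresholds read from the methods, Vdr and Esr1 were higher and no member was lower, against 0.26% of all probe sets higher, 0.277% lower and 0.537% in all. No member changed by at least 1.5-fold in each experiment, against 0.0832% of all probe sets higher, 0.0624% lower and 0.146% in all. The median log2 difference of the 38 genes was 0.01, and that of all probe sets was 0.04. For 26 members the estimate lay within 0.1 of 0. The 95% confidence intervals of 35 members lay inside a 1.5-fold change (0.58 on the log2 scale) in either direction, the exceptions being Vdr, Esr1 and Rarb. The probe sets of 16 of these 35 were below the median brightness of all probe sets. There a narrow interval need not bound the change in RNA. They were Rxrg, Ppara, Thrb, Nr1h4, Nr1i2, Nr1i3, Hnf4a, Nr2e1, Esr2, Esrrb, Esrrg, Pgr, Nr5a1, Nr5a2, Nr0b1 and Nr0b2. In all 3 experiments 5 members were higher, 13.2% against 23.8% of all probe sets, and 6 were lower, 15.8% against 7.98%. In either direction these were 28.9% of the members and 31.8% of all probe sets. With 3 arrays per condition, a gene that missed the threshold was not shown to be unchanged.

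**Figure D1:**
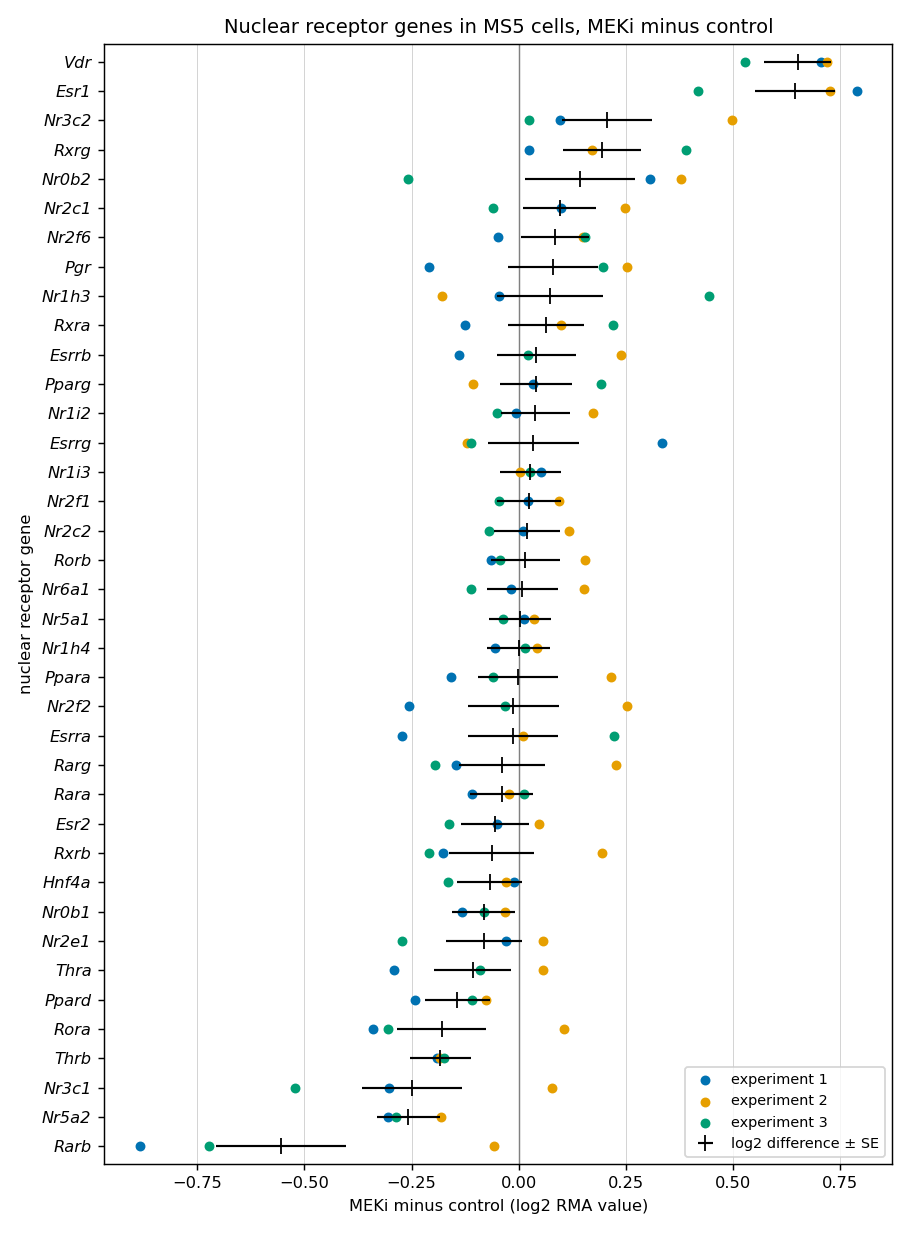
Log2 difference of MEKi from control (x axis) of the 38 nuclear receptor genes (y axis), sorted by estimate. Coloured points are experiments 1, 2 and 3, and the black mark is the limma estimate ± standard error. Vdr (0.65) and Esr1 (0.64) lie apart on the right and Rarb (−0.55) on the left, while most genes cross 0.

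The markers of stroma were read as a check of the label. Of 11 measured stroma markers, 9 were at or above the median brightness of all probe sets, Cxcl12, Kitl, Pdgfra and Pdgfrb among them, and Thy1 and Nt5e were below it. Of 7 leukocyte markers, Cd68 and Cd53 were at or above it, while Ptprc, Itgam, Csf1r, Spi1 and Adgre1 were below. None of 4 endothelial and 1 of 4 epithelial markers (Krt8) were at or above it. Array values ran from 2.25 to 14.07, and the medians of the arrays lay between 6.29 and 6.38. The median difference over all probe sets was −0.003, 0.10 and 0.01 in experiments 1, 2 and 3.

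Vdr encodes the receptor through which calcitriol acts on calcium transport, bone turnover and cell differentiation. The Vdr probe set (10432032) read 9.75, 9.46 and 9.20 in the control cultures of experiments 1, 2 and 3 and 10.46, 10.18 and 9.73 in the MEKi cultures. Each MEKi culture was above the control of its own experiment, but the conditions overlapped, because the MEKi culture of experiment 3 was just below the control of experiment 1. The means were 9.47 ± 0.28 (SD, n = 3) in control and 10.12 ± 0.37 (SD, n = 3) in MEKi cultures. The differences were 0.70, 0.72 and 0.53, a log2 difference of 0.65 (standard error 0.079, adjusted p = 0.0454 from limma). Vdr was thus 1.57 times as high with MEKi as in control (95% confidence interval 1.38 to 1.78). These are bulk cultures, in which a change in the number of cells of a kind and a change in RNA per cell cannot be told apart. The call was lost in limma without experiment 1 (0.62, adjusted p = 0.168), without experiment 2 (0.62, 0.163) and without experiment 3 (0.71, 0.0559), and without the replicate block the adjusted p was 1.00. Beside Vdr, none of the 7 leukocyte markers passed. The mean of these markers was 5.81 to 6.10 in control and 5.68 to 5.92 in MEKi cultures, and their part in the Vdr result was not tested. Cd53 had a log2 difference of −0.75 (adjusted p = 0.0698 from limma) and Cd68 one of −0.61 (adjusted p = 0.249), each lower in all 3 experiments. Csf1r was at −0.08, Ptprc at −0.09, Itgam at −0.01, Spi1 at 0.07 and Adgre1 at 0.05. Of the stroma markers, Vcam1, an adhesion molecule, had the largest difference, −0.57 (adjusted p = 0.0942 from limma), without overlap of the conditions. Cd53 did not overlap either, and 2.17% of all probe sets were lower without overlap.

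Below stand the 250 bases before the Vdr start site in RefSeq (GRCm38.p6, chr15:97908297-97908546, minus strand), shown because Vdr is the member that passed. Capitals mark GC boxes (GGGCGG or its complement).

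Vdr: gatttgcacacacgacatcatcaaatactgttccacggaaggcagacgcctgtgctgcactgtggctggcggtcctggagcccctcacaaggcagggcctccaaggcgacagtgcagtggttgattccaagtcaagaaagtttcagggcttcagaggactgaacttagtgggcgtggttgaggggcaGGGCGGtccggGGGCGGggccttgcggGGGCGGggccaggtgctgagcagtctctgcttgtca

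The window held 3 GC boxes, which begin 63, 52 and 36 bases before the start. A GC box was found in 32.7% of the 32851 windows of this length in the RefSeq table, searched on both strands, and in 24 of the 56 windows that the table holds for 35 of the receptor genes. The letters TGANTCA (AP-1), TGACGTCA (cAMP response element), CCGGAAGT (ETS) and AGGTCA, the hexamer that many nuclear receptors bind, were not in the Vdr window. They were in 6.75%, 1.55%, 2.88% and 14% of all windows. These matches describe the letters and show no binding.

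**Figure D2:**
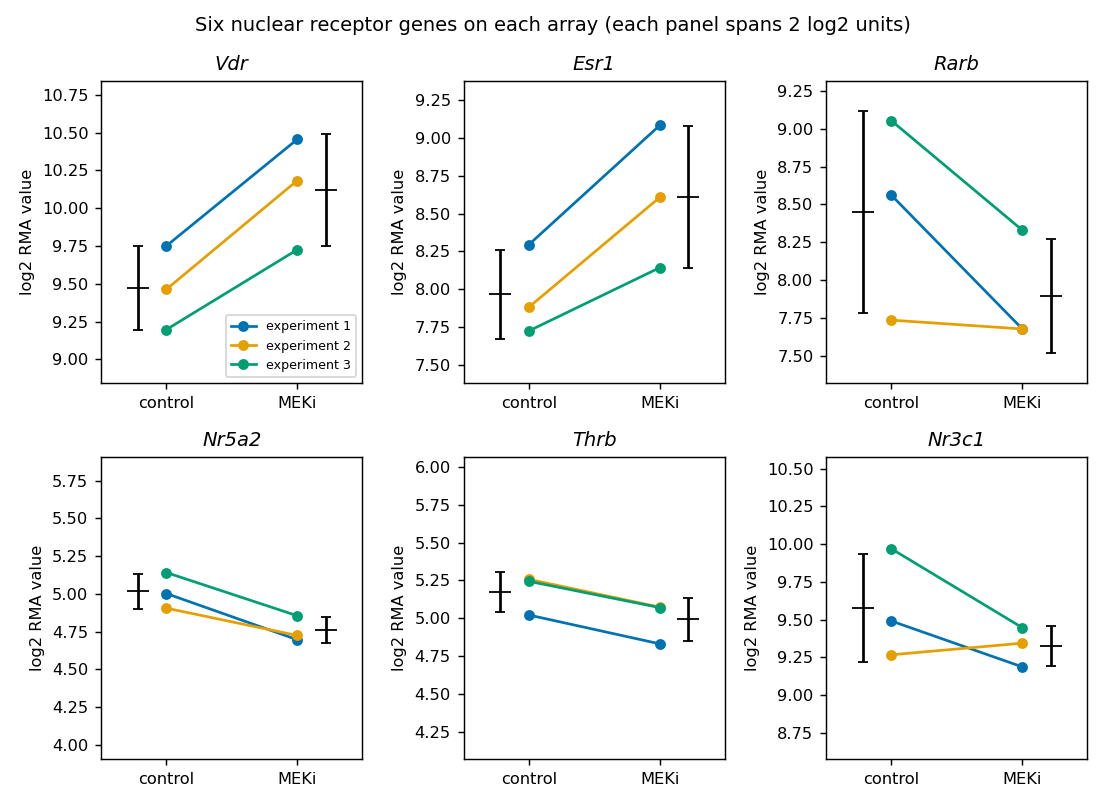
RMA values on the log2 scale (y axis) of Vdr, Esr1, Rarb, Nr5a2, Thrb and Nr3c1 in control and MEKi cultures (x axis). Lines join the cultures of an experiment, black marks are the mean ± SD of 3 cultures, and all panels span the same log2 range. Vdr and Esr1 run upwards in each experiment, Nr5a2 and Thrb downwards, and for Rarb the line of experiment 2 is nearly flat (−0.06).

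The partners of VDR, the retinoid X receptors, did not pass. Rxra had a log2 difference of 0.06 with an interval from −0.15 to 0.27, and Rxrb one of −0.06 with an interval from −0.30 to 0.17. Rxrg, whose probe set was among the dimmer ones, was higher in each experiment (0.02, 0.17 and 0.39, log2 difference 0.19, adjusted p = 0.548 from limma).

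Genes of vitamin D synthesis and uptake were read beside the receptor. Of 8 listed genes 6 were measured, and no gene that breaks down the metabolites was among them. None of the 6 passed and none had an unadjusted p of at most 0.05. Cyp27b1, the hydroxylase that forms calcitriol, had a log2 difference of 0.09, Cyp2r1 and Cyp27a1, which form its precursor, had 0.02 and −0.01, and Cubn, an uptake receptor for the carrier protein, had 0.19. The median of these genes was 0.03, against 0.04 for all probe sets. Only 2 of the 6 were at or above the median brightness.

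Of 17 listed VDR targets 12 were measured. None of these rose and 1, Thbd, fell, against 0.104% of all probe sets called higher and 0.0555% lower. Thbd encodes thrombomodulin, an anticoagulant receptor of the cell surface that calcitriol is known to raise in some cells. Thbd read 11.51, 10.90 and 11.07 in control and 10.35, 10.24 and 10.25 in MEKi cultures of experiments 1, 2 and 3, so that all MEKi values were below all control values, as in 2.17% of all probe sets. The log2 difference of Thbd was −0.88 (standard error 0.105, adjusted p = 0.0454 from limma). Its call was lost in limma without experiment 1 (−0.74), 2 (−0.99) or 3 (−0.91), with adjusted p-values of 0.104, 0.131 and 0.051. Among the others, Trpv6, an epithelial calcium channel, was at 0.17, Tnfsf11, which encodes RANK ligand, at −0.04, Lrp5, a WNT coreceptor, at −0.26, and Atp2b1, a calcium pump, at −0.19. The median of the list was −0.01. The direction of Thbd is opposite to that of Vdr. Only 5 of the 12 probe sets were at or above the median brightness, and the other listed targets were not read. The response of VDR targets as a whole was not tested.

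Among the oestrogen and oestrogen-related receptors, Esr1 stood beside Vdr in size but did not pass. Esr1 encodes oestrogen receptor alpha, the main oestrogen receptor of bone. It read 8.29, 7.88 and 7.72 in control and 9.08, 8.61 and 8.14 in MEKi cultures of experiments 1, 2 and 3. As for Vdr, values were highest in experiment 1 and lowest in experiment 3 in both conditions. The stroma marker Eng had this order of experiments too, as had Tsc22d3 and Aldh1a1, which are read below. Cd53 and Rdh10 had it as well, though they were lower with MEKi in each experiment. The share of all probe sets with this order was not counted. Esr1 was above control with MEKi within each experiment while the conditions overlapped. The differences were 0.79, 0.73 and 0.42, a log2 difference of 0.64 (standard error 0.094, adjusted p = 0.0928 from limma), or 1.56 times the control level (95% confidence interval 1.34 to 1.82). Esr1 passed in 4 of the alternatives, without experiment 3 (0.76, adjusted p = 0.047), with a prior that follows intensity (0.028), with probe sets of 1 gene each (0.038) and with 1 mean value per gene (0.0328). No letters of the motifs above were found in the windows before its 2 RefSeq starts. Esr2, oestrogen receptor beta, had a log2 difference of −0.06 with an interval from −0.24 to 0.13. The orphan receptors Esrra, Esrrb and Esrrg, which act on genes of energy metabolism, had values of −0.01, 0.04 and 0.03. Those of Esrrg were 0.33, −0.12 and −0.11 in the 3 experiments. The probe sets of Esr2, Esrrb and Esrrg were below the median brightness.

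**Figure D3:**
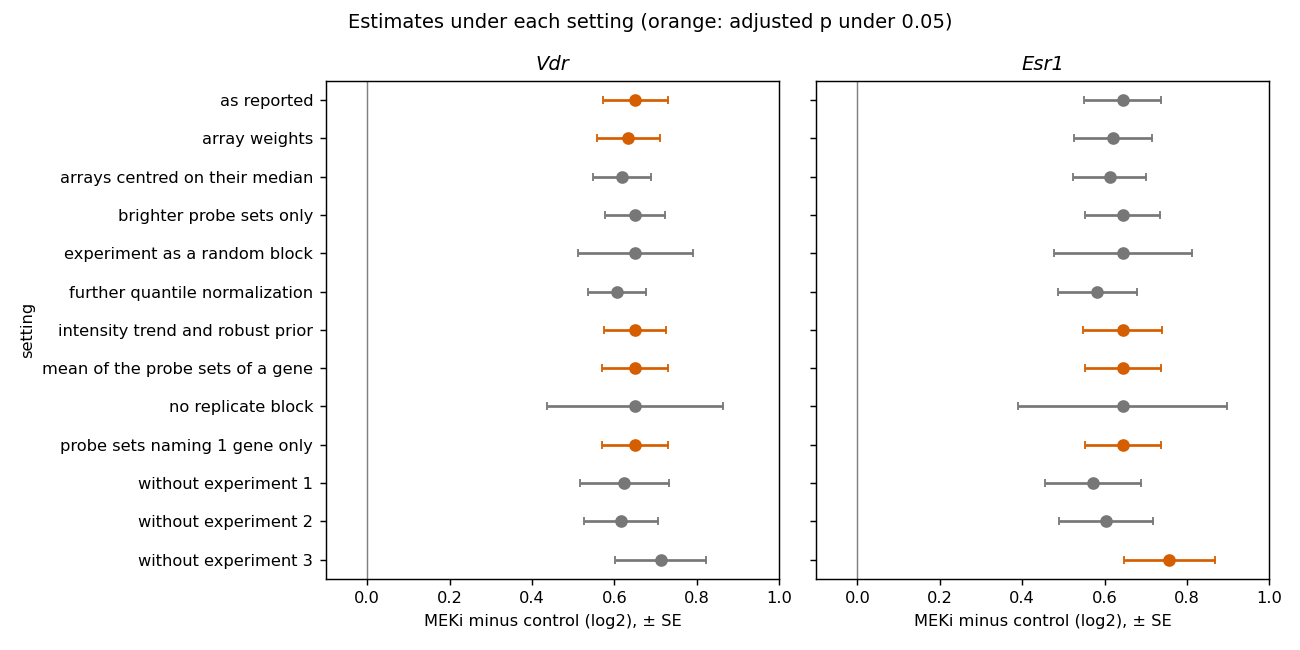
Log2 difference ± standard error (x axis) of Vdr and Esr1 in limma as reported and under each alternative (y axis), with orange points where the adjusted p was under 0.05. All estimates lie to the right of 0, from 0.61 to 0.71 for Vdr and from 0.57 to 0.76 for Esr1, and the bars are longest without the replicate block.

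The retinoic acid receptors showed the lowest estimate of the family. Rarb, which is itself induced by retinoic acid through a response element in its promoter, read 8.56, 7.73 and 9.05 in control and 7.68, 7.68 and 8.33 in MEKi cultures of experiments 1, 2 and 3. The control cultures differed among themselves by more than MEKi from control in any experiment, and experiment 2, with the lowest control value, showed almost no difference. The differences were −0.88, −0.06 and −0.72, a log2 difference of −0.55 (standard error 0.151, adjusted p = 0.316 from limma, 95% confidence interval −0.91 to −0.20). Rara, which is widely expressed, and Rarg, known for its part in skin and cartilage, had log2 differences of −0.04 each, with intervals from −0.21 to 0.13 and from −0.27 to 0.20.

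The 250 bases before the RefSeq start of Rarb (GRCm38.p6, chr14:16575477-16575726, minus strand) are shown with a copy of the retinoic acid response element in capitals.

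Rarb: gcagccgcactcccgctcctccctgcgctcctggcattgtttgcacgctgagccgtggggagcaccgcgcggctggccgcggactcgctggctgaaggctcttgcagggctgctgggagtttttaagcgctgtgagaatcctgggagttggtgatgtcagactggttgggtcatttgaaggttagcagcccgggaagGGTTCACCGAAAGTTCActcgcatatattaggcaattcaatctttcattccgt

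The letters searched, on both strands, were the hexamers GGTTCA and AGTTCA with any 5 bases between them. The match runs from 53 to 37 bases before the start, and 2 of the 32851 windows (0.00609%) held these letters. The probe set does not tell the transcripts of Rarb apart, and no binding was measured.

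Of 12 listed retinoic acid receptor targets 10 were measured and none passed. Crabp2, which carries retinoic acid to its receptors, had a log2 difference of −0.46 with values of −0.92, −0.06 and −0.40 in experiments 1, 2 and 3. This order of experiments was also that of Dhrs3 in this list and of the receptors Rarb and Ppard. Outside the list, Lrp5, Ddit4 and Cd68 had it too. How many of all probe sets share it was not counted. Dhrs3, a retinaldehyde reductase, had −0.15, Rarres2, which encodes chemerin, −0.20, and Tgm2, a transglutaminase, 0.28. Cyp26a1, Cyp26b1 and Cyp26c1, which break down retinoic acid, had values from −0.02 to 0.10. The median of the list was 0.02. Of 15 listed enzymes that make or remove the ligands of these and other receptors, 14 were measured and none passed. Rdh10, which oxidizes retinol, was at −0.45, −0.47 and −0.39 in the experiments (log2 difference −0.44, standard error 0.073, adjusted p = 0.132 from limma) and Aldh1a1, which forms retinoic acid, was at 0.43 (adjusted p = 0.296 from limma).

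The fatty acid receptors of the PPAR group did not pass. Pparg, the driver of adipocyte differentiation, read 10.90, 11.65 and 11.68 in control and 10.93, 11.54 and 11.87 in MEKi cultures. These values moved more between experiments than between conditions, and the log2 difference was 0.04 with an interval from −0.16 to 0.24. Ppard, an activator of fatty acid use, was lower in each experiment (−0.24, −0.08 and −0.11, log2 difference −0.14, adjusted p = 0.599 from limma). Ppara had a log2 difference of −0.001.

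Of 19 listed PPAR targets, several of them adipocyte genes, 16 were measured and none passed. At an unadjusted p of at most 0.05, 7 of the 16 were higher and 1 lower, against 7.58% and 2.31% of all probe sets. In all 3 experiments 6 were higher and 2 lower, against 23.8% and 7.98%. Their median was 0.29, against 0.04 for all probe sets. Plin1, a lipid droplet protein, had a log2 difference of 0.51 with values of 0.77, −0.17 and 0.93 in experiments 1, 2 and 3. Adipoq, which encodes adiponectin, was at 0.45, Ehhadh, an enzyme of peroxisomal fatty acid oxidation, at 0.40 (adjusted p = 0.215 from limma), and Plin2, another lipid droplet protein, at −0.21. The median of these targets was 0.04 in experiment 2 and 0.32 in experiment 3. The mean level of the list in control cultures was 8.81, 9.43 and 9.15 in experiments 1, 2 and 3, and the part of adipocyte-like cells in these values was not tested.

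The thyroid hormone receptors did not pass. Thrb had nearly equal differences in the experiments (−0.19, −0.18 and −0.17), with a log2 difference of −0.18 (standard error 0.072, adjusted p = 0.469 from limma), at values between 4.83 and 5.26, below the median brightness. Thra was at −0.11 with an interval from −0.32 to 0.10. Of 6 thyroid hormone targets none passed (median 0.01). Klf9, which glucocorticoids also induce, was at −0.17 and Thrsp, a lipogenic protein, at 0.14. Of the ROR receptors, Rora, which also acts in the circadian clock, was at −0.34, 0.11 and −0.31 in the experiments (log2 difference −0.18, adjusted p = 0.629 from limma), and Rorb was at 0.02.

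Among the sensors of sterols, bile acids and foreign compounds, Nr1h3 (LXR alpha), a receptor for oxysterols, had a log2 difference of 0.07 with values of −0.05, −0.18 and 0.44. Nr1h4, the bile acid receptor FXR, Nr1i2 (PXR) and Nr1i3 (CAR) had values of 0.00, 0.04 and 0.03 on dim probe sets. None of 10 LXR targets passed (median 0.03), with Apoe, an apolipoprotein, at −0.29, Lpcat3, a phospholipid-remodelling enzyme, at 0.19 and the sterol exporters Abca1 and Abcg1 at 0.02 and 0.13. Hnf4a, a liver and gut receptor, was at −0.07.

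The orphan receptors of the Nr2 group stayed close to 0 in estimate. Nr2f1 and Nr2f2 (COUP-TF I and II), which act in organ development, had log2 differences of 0.02 and −0.01, with intervals from −0.15 to 0.20 and from −0.26 to 0.24. Nr2f6, Nr2c1 and Nr2c2 were at 0.08, 0.10 and 0.02, and Nr2e1, a receptor of neural stem cells, was at −0.08.

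Of the receptors for corticoids and progesterone, Nr3c1, the glucocorticoid receptor, read 9.49, 9.27 and 9.97 in control and 9.19, 9.34 and 9.45 in MEKi cultures. MEKi was lower in experiments 1 and 3 and slightly higher in experiment 2, with a log2 difference of −0.25 (standard error 0.117, adjusted p = 0.549 from limma). Nr3c2, the mineralocorticoid receptor, was higher in each experiment (0.10, 0.50 and 0.02, log2 difference 0.21, adjusted p = 0.584 from limma). Pgr, the progesterone receptor, which oestrogen is known to induce, was at 0.08 on a probe set below the median brightness. Of 15 genes known as glucocorticoid targets none passed, and 6 were lower and 1 higher in all 3 experiments, against 7.98% lower and 23.8% higher among all probe sets. The median of the list was −0.11. Hsd11b1, the enzyme that regenerates active glucocorticoid inside cells, read 9.99, 11.23 and 10.71 in control and 8.46, 10.21 and 10.31 in MEKi cultures of experiments 1, 2 and 3. It was lower in each experiment, with a log2 difference of −0.98 (standard error 0.186, adjusted p = 0.177 from limma). Hsd11b1 passed in only 1 of the 12 alternatives, without experiment 3 (−1.27, adjusted p = 0.0238 from limma), which had its smallest difference (−0.40). Tsc22d3, which encodes the glucocorticoid-induced leucine zipper, was at 0.42 with values of 0.29, 0.50 and 0.48 (adjusted p = 0.173 from limma). Mt2, a metallothionein, and Ddit4, an inhibitor of mTORC1, were at −0.37 and −0.36, while Fkbp5, a chaperone of the receptor, was at −0.11.

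**Figure D4:**
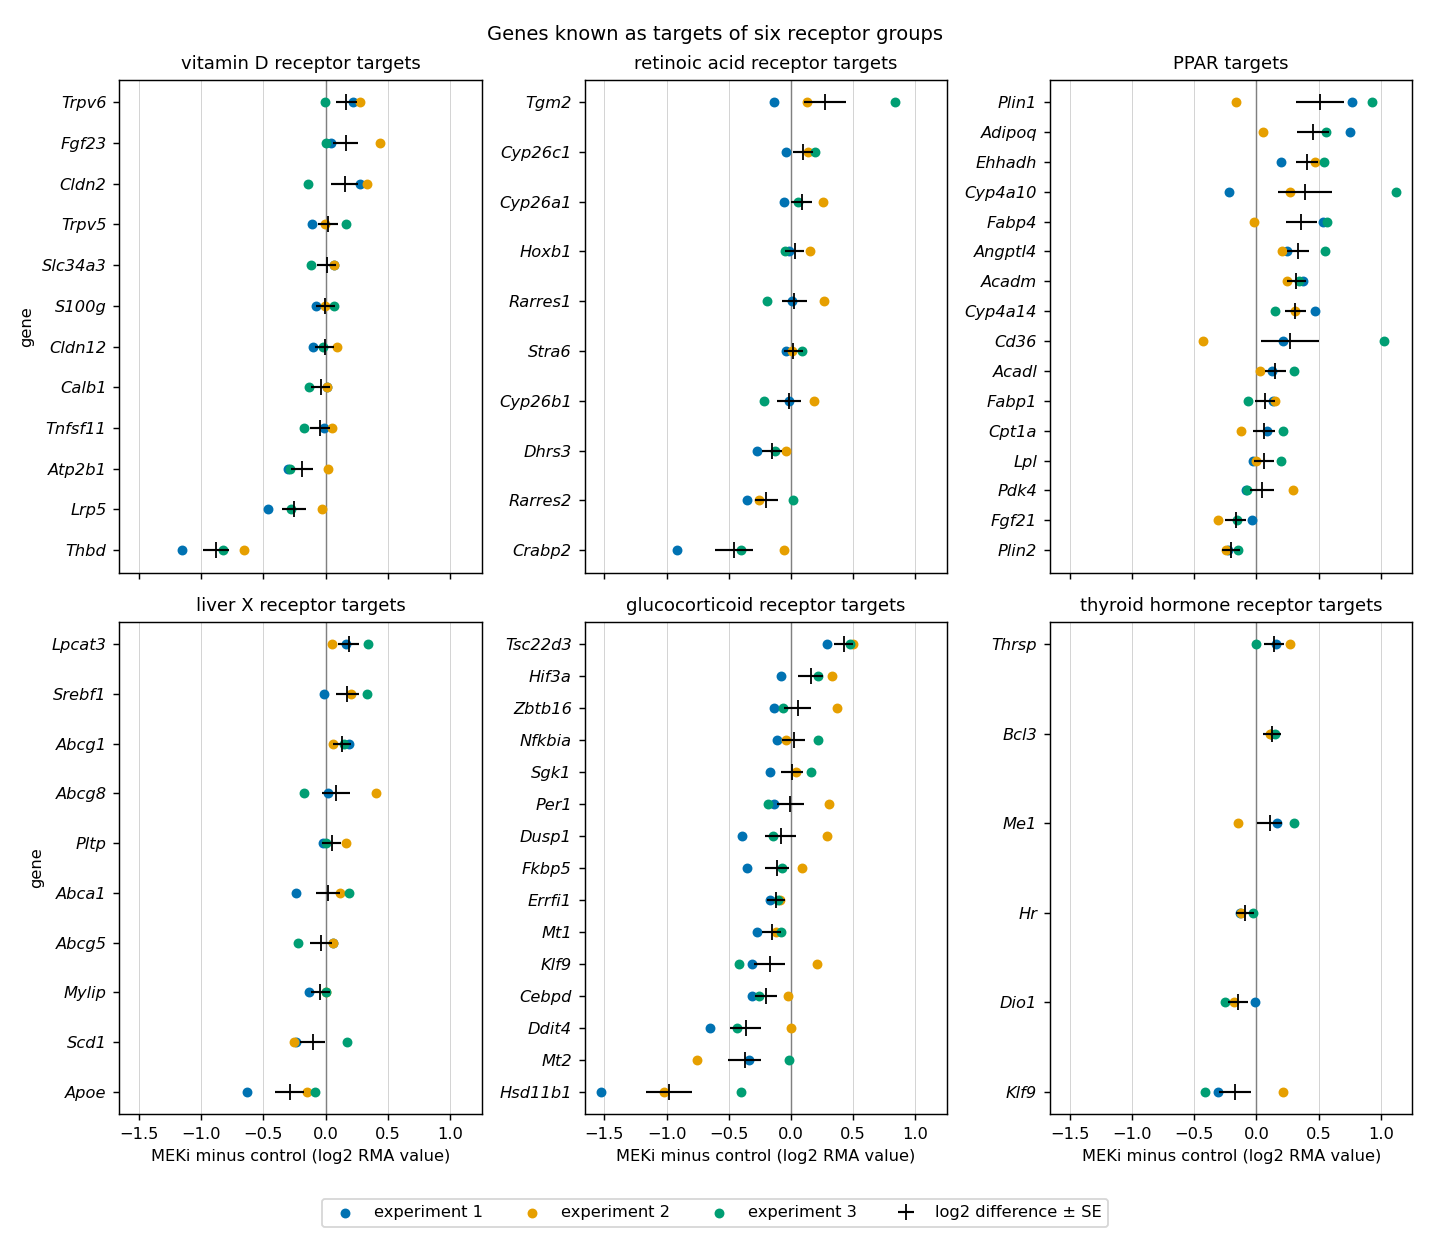
Log2 difference of MEKi from control (x axis) of the genes known as targets of VDR and the retinoic acid, PPAR, liver X, glucocorticoid and thyroid hormone receptors (y axes). Coloured points are experiments 1, 2 and 3, and black marks are limma estimates ± standard error. Thbd (−0.88) lies far left among VDR targets, and PPAR targets lean to the right (median 0.29), with Plin1 (−0.17) and Cd36 (−0.43) below 0 in experiment 2.

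Of the remaining receptors, Nr5a2 (LRH-1), which controls bile acid and steroid genes, was the member whose MEKi and control values did not overlap. It read 5.002, 4.91 and 5.14 in control and 4.70, 4.72 and 4.86 in MEKi cultures, a log2 difference of −0.26 (standard error 0.074, adjusted p = 0.339 from limma). Over all probe sets, 2.17% did not overlap and were lower, 5.69% higher and 7.86% in all, against 2.63% of the members in all. Nr5a2 was below the median brightness. Nr5a1 (SF-1) and Nr6a1 were at 0.00 and 0.01. The receptors without a DNA-binding domain, Nr0b1 (DAX1) and Nr0b2 (SHP), which repress other receptors, were at −0.08 and 0.14, Nr0b2 with values of 0.31, 0.38 and −0.26.

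Coregulators carry the signal of these receptors to chromatin. All 14 listed coactivators and 9 of 11 corepressors were measured and none passed, and their medians were 0.07 and 0.02. In all 3 experiments 9 of these 23 were higher and none lower, against 23.8% and 7.98% of all probe sets. The coactivator Ncoa7 had a log2 difference of 0.16, and Ppargc1a and Ppargc1b, the PGC-1 coactivators, had 0.14 and 0.13. Ppargc1a was read from the brighter of its 2 probe sets, which was still below the median brightness. Nrip1 (RIP140), a corepressor that oestrogen is known to induce, was at 0.28, 0.22 and 0.56 in the experiments, a log2 difference of 0.36 (standard error 0.090, adjusted p = 0.272 from limma), and Tbl1xr1, a subunit of the NCOR complex, was at 0.22 in its brighter probe set. At an unadjusted p of at most 0.05, 2 of the 23 (these corepressors) were higher and none lower, against 7.58% and 2.31% of all probe sets. Of 7 listed chaperones that hold steroid receptors ready for ligand, 6 were measured and none passed (median 0.07), with the HSP90 gene Hsp90aa1 at 0.05 and Bag1, a cochaperone, at 0.16.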

How the data were processed

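RNA of 6 MS5 cultures, 3 control and 3 MEKi, had been hybridized to Affymetrix mouse Gene 1.0 ST arrays. The authors normalized raw data with RMA and deposited log2 values of 28853 probe sets. Versions, a genome build and strand are not given in the sources used here. The deposited values were used without a filter, and 0 array columns were left out. The probe table named 1 gene for 21789 probe sets, several for 1621 and none for 5443. Genes of the lists with several probe sets were read by the one with the highest mean.

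MEKi and control were compared in R 4.3.3 with limma 3.58.1 (lmFit, eBayes) over all probe sets, with the experiment as a block and Benjamini-Hochberg adjustment (threshold 0.05, two-sided). The block left 2 residual degrees of freedom, and the prior added 5.17. The experiment numbers pair the arrays: each experiment gave both conditions, and deviations of same-numbered arrays from their condition means correlated by 0.81, 0.59 and 0.62, against −0.60 to 0.21 for other pairs. The methods' P-values of at most 0.05% were read as 0.05, with 0.0005 as an alternative. Lists were counted, with no set test. The procedure was also run on values simulated from the fitted model with independent errors. Such values cannot show whether calls hold in these arrays.

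The members, lists and tests were chosen with earlier results of these data known. All members may be named, and of each list the genes past the threshold and up to 4 others by size, besides all markers of stroma and other cell types. Abca1, Acadm, Cd36, Cyp26a1, Cyp26b1, Cyp26c1, Cyp27a1, Hsp90aa1, Plin2 and Tnfsf11 fall outside this rule and were chosen after their values were seen. Promoter letters were searched in RefSeq windows (GRCm38.p6). The number of arrays limits the precision. Figures used matplotlib 3.10.9.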

Additional observations from a re-analysis of the deposited data

How the results depend on the processing

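Vdr kept its call in 4 of the 12 alternatives, with limma's adjusted p between 0.00906 and 1.00. It did not pass with arrays centred on their median (0.62, adjusted p = 0.0659), with brighter probe sets only (0.65, 0.0512), after quantile normalization of the values (0.61, 0.0616), with experiments as random blocks (0.65, 0.424), without the replicate block (0.65, 1.00), or with any experiment left out (0.62 to 0.71, 0.0559 to 0.168). The number of receptor genes called higher was therefore 0 with centred arrays, brighter probe sets only, a random block, further quantile normalization or no replicate block, and 0 to 1 with an experiment left out, the 1 being Esr1 without experiment 3. It was 2 (Vdr and Esr1) with a robust prior and an intensity trend, with 1 mean value per gene and with probe sets of 1 gene each. The number called lower was 0 in all 12 alternatives. Of the receptor targets, 1 fell as reported (Thbd). None did with centred arrays, brighter probe sets only, a random block or no replicate block, and 0 to 1 did with an experiment left out, the 1 being Hsd11b1 without experiment 3. With an intensity trend 1 target rose (Acadm, 0.32). No coregulator passed in any alternative. At the thresholds of the methods, 2 receptor genes were higher and 0 lower, also with an ordinary analysis of variance, at an unadjusted p of 0.0005 and without the replicate block. The ordinary analysis of variance was not among the 12 alternatives. After adjustment it called 0 of 28853 probe sets, so that neither Vdr nor Thbd passed there. The median of the receptor genes moved by less than its spread between experiments in all 12. No reported direction of Vdr, Esr1, Rarb, Nr5a2, Thrb, Thbd, Hsd11b1 or Rdh10 was reversed, but this lends them little support. Each had the same sign in all 3 experiments, so that leaving out 1 experiment could not reverse it. Several other alternatives change only the error or the adjustment and leave the estimate as it was. Over all probe sets, 46 were called as reported, 0 with centred arrays, a random block, no replicate block or without experiment 2 (2780, 2321, 907 and 3063 at an unadjusted p under 0.05, limma), 14 without experiment 1, 37 without experiment 3, 15 after further quantile normalization, 25 with brighter probe sets only and 115 with an intensity trend. Array weights gave 57 calls over all probe sets. With 1 mean value per gene there were 55 calls in 19938, and with probe sets of 1 gene each 61 in 21789. Depth does not apply to arrays, and 16 of the 38 members were read from probe sets below the median brightness.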
